A study of Mus musculus with 16 samples.

Results

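The 10 genes described here encode transcription factors of the pluripotent state and were chosen by name, out of 55421 genes in the count files: 8 factors associated with naive pluripotency (Nanog, Esrrb, Klf2, Klf4, Klf5, Tbx3, Tfcp2l1 and Nr0b1) and 2 core factors (Pou5f1 and Sox2). RNA-seq was performed on female F1 hybrid mouse embryonic stem cells (ESCs) of a 129/Sv and Cast/Ei cross, in which the endogenous Xist promoter of the Cast X chromosome responds to doxycycline (dox). Both genotypes, Wt and Spen-/-, carry this promoter, and Spen-/- cells in addition lack the whole open reading frame of Spen on both alleles. Each genotype was profiled as 2 biological replicates in 4 conditions, 16 libraries in all: day 0 without dox, day 0 with dox, day 3 of monolayer differentiation without dox, and day 7 of differentiation with dox. Dox was given at 2 µg/mL for 4 days before day 0 and then throughout differentiation. Undifferentiated cells grew with serum and LIF on irradiated male feeder fibroblasts, which were depleted by plating before differentiation in medium without LIF. Dox-treated cells were sorted for dsRed, so dox treatment and sorting cannot be told apart at day 0. Spen-/- lines are clones, and the clone behind each library is not given in the sources used here. p-values therefore measure the spread between these libraries only. In bulk RNA, fewer cells expressing a gene and less RNA per cell cannot be told apart.

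Pluripotency in mouse ESCs is held by a small network of transcription factors that bind each other's regulatory regions. Pou5f1 (OCT4) and Sox2 bind DNA together at a composite element and are expressed in naive, formative and primed pluripotent cells. LIF acts through STAT3 to sustain Klf4 and Tfcp2l1, the WNT pathway relieves repression of Esrrb and Klf2 by TCF7L1, and these naive factors are switched off when ESCs leave the naive state. Nanog is a homeobox factor, Esrrb an orphan nuclear receptor, Klf2, Klf4 and Klf5 are Krüppel-like zinc finger factors, Tbx3 is a T-box factor, Tfcp2l1 belongs to the CP2 family, and Nr0b1 (DAX1) is an orphan nuclear receptor and the sole X-linked gene of the group.

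In GRCm38 (GENCODE M21) all members are protein-coding genes: Nanog at chr6:122707489-122714633, Esrrb at chr12:86361117-86521628, Klf2 at chr8:72319033-72321656, Klf4 at chr4:55527143-55532466, Klf5 at chr14:99298691-99315036, Tbx3 at chr5:119670669-119684724, Tfcp2l1 at chr1:118627945-118685168, Nr0b1 at chrX:86191764-86195947, Pou5f1 at chr17:35506018-35510772 and Sox2 at chr3:34650405-34652461. Klf4 lies on the minus strand and the others on the plus strand. Exons of Pou5f1 share 317 bases (14.1% of its exonic length) with the antisense gene Gm19553, and exons of Tbx3 share 115 bases (1.74%) with the antisense gene Tbx3os1. Tfcp2l1 shares 130 exonic bases (1.38%) with the snRNA gene Gm23497 on its own strand. Sox2 lies within Sox2ot without a shared exonic base. Whether counting used strand is not given in the sources used here, so reads from these shared stretches cannot be assigned with certainty.

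RefSeq promoter windows (GRCm38.p6, 250 bases before to 50 after a start site) matched 8 of the 10 members, in 11 windows. They were searched on both strands for TGCATNACA (an Oct-Sox composite), ATTTGCAT (an octamer), TTCNNNGAA (a STAT motif), AAGGTCA (the oestrogen-related receptor site) and CCACCC (a KLF box). The composite was found in both windows of Nanog, which overlap and hold the same match, against 0.801% of all 32851 promoter windows. The STAT motif was found in 1 of the 11 member windows, a window of Esrrb, which is near its share of 8.3% over all windows. KLF boxes were found in 7 of the 11, against 31.5%. The overlapping windows of Nanog hold the same KLF box as well, so it counts for both. No member window held the octamer (1.74% of all windows) or the receptor site (4.72%). These matches are descriptions of letters, and no binding was measured. The following 120 bases, plus strand, show the composite of Nanog (chr6:122707366-122707485, first base at -73 from the upstream start site), the STAT motif of Esrrb (chr12:86360889-86361008, at -178) and the 4 KLF boxes of Pou5f1 (chr17:35505912-35506031, at -80, -58, -54 and -19), because these members hold the composite, the STAT motif and the most KLF boxes. Capitals mark the matches, and 2 of the boxes of Pou5f1 overlap.
Nanog: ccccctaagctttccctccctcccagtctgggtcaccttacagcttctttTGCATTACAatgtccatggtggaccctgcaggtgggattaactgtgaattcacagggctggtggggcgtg
Esrrb: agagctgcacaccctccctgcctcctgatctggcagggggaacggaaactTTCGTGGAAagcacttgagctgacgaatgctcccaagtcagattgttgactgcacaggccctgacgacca
Pou5f1: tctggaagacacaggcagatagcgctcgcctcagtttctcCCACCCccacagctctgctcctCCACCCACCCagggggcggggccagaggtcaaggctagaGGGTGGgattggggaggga

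Library depth ran from 7571566 to 14822867 reads assigned to a gene, and all 10 members were among the 18150 genes tested. Levels are given as CPM, the reads of a gene per 1000000 reads of its library after TMM scaling, with replicate 1 before replicate 2. Spen was at 16.2 to 43.5 CPM in the 8 Wt libraries and at 0.129 to 5.45 CPM in the 8 Spen-/- libraries. The Spen-/- day 7 libraries stood apart, with 15324 and 14969 genes detected against 16952 to 23458 elsewhere, and with the lowest correlation between replicates (0.80 of log2 CPM). Counts of members called in comparisons that do not use them were also taken from a fit without them, in which those for dox, for genotype at day 0 and day 3 and for the interactions at day 3 and with dox stayed at 0. Reads of 4 Y-linked genes, which female ESCs lack, summed to 3.62 to 18.1 CPM at day 0 without dox, 0.129 to 5.78 CPM at day 0 with dox and 0 to 0.533 CPM later. The 10 fibroblast markers summed to 62.3 to 152 CPM, 15.5 to 55.3 CPM, 59.2 to 84.3 CPM (day 3) and 65.1 to 102 CPM (day 7).

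All members had reads in every library of undifferentiated cells. Per kilobase of exon, the order in Wt cells at day 0 without dox was Pou5f1 (178 ± 72.0 CPM per kb, SD, n = 2), Nr0b1 (146 ± 73.4), Nanog (129.9 ± 34.3), Klf5 (82.3 ± 38.1), Sox2 (40.5 ± 6.30), Tbx3 (39.3 ± 3.11), Esrrb (35.8 ± 6.44), Klf2 (29.3 ± 5.96), Tfcp2l1 (25.0 ± 2.64) and Klf4 (17.6 ± 3.40). Each of these neighbours differed by less than the sum of their SDs, apart from Tfcp2l1 and Klf4. At day 3 the same scale placed Pou5f1 (211 ± 17.4) and Nanog (121 ± 36.8) far above Klf5 (25.1 ± 3.78) in Wt cells, with Klf4 lowest (0.967 ± 0.0327). In Spen-/- cells at day 3 Nanog (157 ± 2.62) and Pou5f1 (156 ± 13.5) were followed by Klf5 (19.7 ± 0.721).

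**Figure D1:**
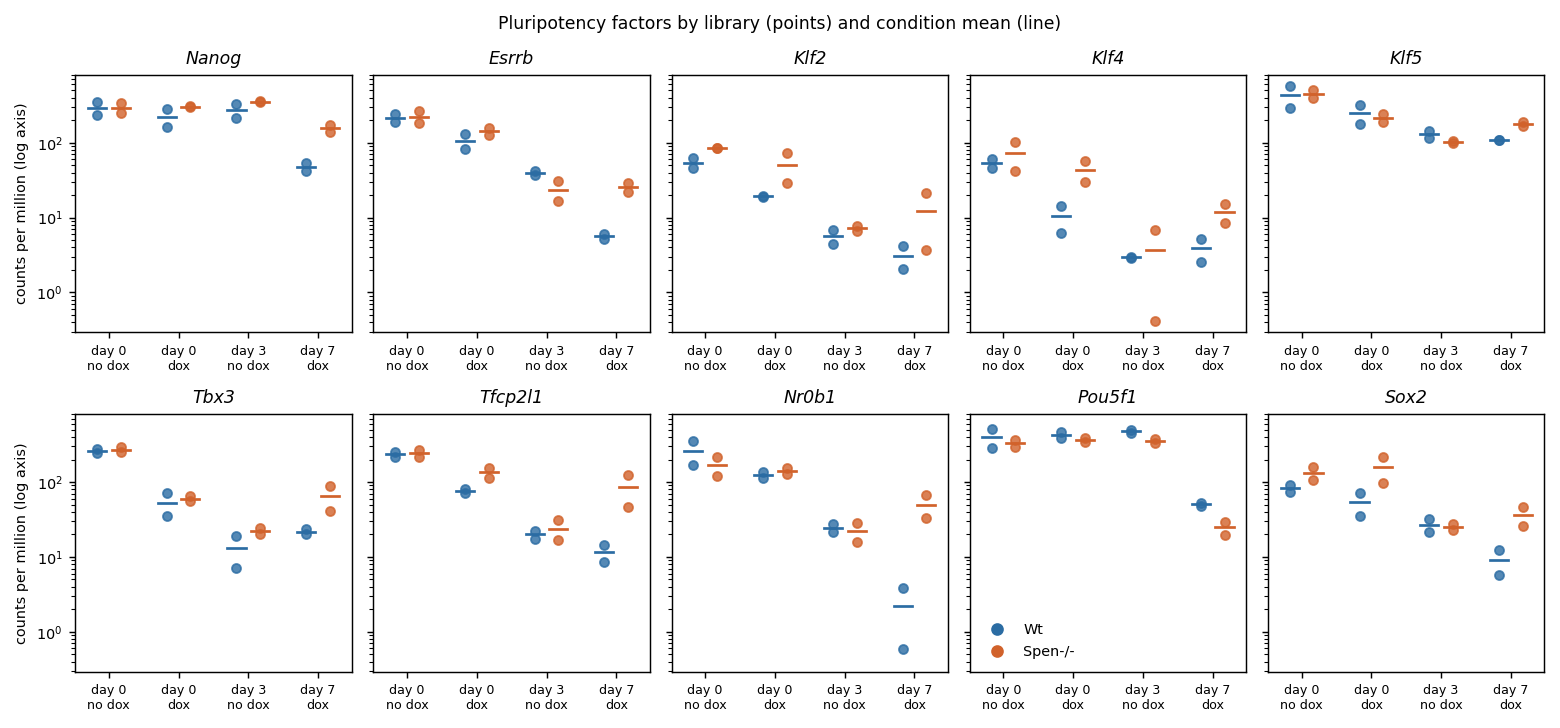
CPM of the 10 factors on a log axis, 1 panel per gene, in 4 conditions along the x axis; points are libraries, lines the mean of 2, blue Wt and orange Spen-/-. Pou5f1 and Nanog stayed near their day 0 levels at day 3 while Esrrb, Tbx3, Tfcp2l1 and Nr0b1 were far lower, and at day 7 Nr0b1 was at 0.589 and 3.81 CPM in Wt against 32.9 and 66.3 CPM in Spen-/- libraries.

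The first comparison asked how the factors changed over 3 days of differentiation without dox. Most naive factors fell by more than 3-fold in both genotypes, and Pou5f1 and Nanog had fold changes near 1 in values that overlapped in Wt cells. In Wt cells, 5 of 10 members were called lower and none higher (edgeR's quasi-likelihood test, Benjamini-Hochberg adjusted p under 0.05), against 0.953% of all genes called lower and 0.43% higher. In Spen-/- cells, 6 were called lower and none higher, against 0.656% and 0.573% of all genes. Both day 3 libraries lay below both day 0 libraries for 8 members in each genotype, against 23.5% (Wt) and 21.8% (Spen-/-) of all genes, and above them for 1 member, Nanog, in Spen-/- cells, against 24.6%. The median log2 change over the 8 naive factors was -3.35 in Wt and -3.30 in Spen-/- cells, beside 0.01 and 0 over all genes tested.

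Tbx3, a T-box repressor and activator that supports self-renewal, had the largest fitted change among called members in Wt cells. It was at 246 and 275 CPM at day 0 and at 7.19 and 19.1 CPM at day 3, a log2 change of -4.31 ± 0.52 (SE, adjusted p = 0.00256). It went from 292 and 249.2 CPM to 24.0 and 20.2 CPM in Spen-/- cells (-3.61 ± 0.51, adjusted p = 0.00482). Tfcp2l1, a target of LIF and STAT3, fell from 253 and 218 CPM to 17.5 and 22.4 CPM in Wt (-3.56 ± 0.47, adjusted p = 0.00358) and from 267 and 219 CPM to 30.7 and 16.8 CPM in Spen-/- cells (-3.35 ± 0.47, adjusted p = 0.00474). For both genes all day 3 libraries lay below all day 0 libraries.

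Esrrb, the orphan receptor that can stand in for Nanog in self-renewal, was at 244 and 189 CPM in Wt day 0 and at 41.8 and 37.3 CPM in day 3 libraries (log2 change -2.45 ± 0.35, adjusted p = 0.00506). Spen-/- cells had 265 and 182 CPM at day 0 and 16.5 and 30.4 CPM at day 3 (-3.25 ± 0.36, adjusted p = 0.0012). The groups did not overlap in either genotype.

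Nr0b1, a nuclear receptor that binds and restrains OCT4, went from 358 and 169.9 CPM to 21.3 and 27.3 CPM in Wt (-3.44 ± 0.65, adjusted p = 0.0265) and from 217 and 122 CPM to 28.3 and 15.8 CPM in Spen-/- cells (-2.95 ± 0.64, adjusted p = 0.0492). Its Wt day 0 replicates differed by more than the day 0 means of the 2 genotypes did.

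Among the Krüppel-like factors, Klf5 had the smallest change and stayed the most abundant. It fell from 288 and 568 CPM to 144 and 116 CPM in Wt (-1.71 ± 0.33, adjusted p = 0.029) and from 392 and 505 CPM to 99.8 and 105 CPM in Spen-/- cells (-2.13 ± 0.34, adjusted p = 0.00934). Klf2 was at 46.3 and 61.9 CPM and then at 4.44 and 6.89 CPM in Wt cells, where it narrowly missed the threshold (-3.25 ± 0.72, adjusted p = 0.0519). It fell in Spen-/- cells from 85.3 and 84.3 CPM to 7.68 and 6.65 CPM (-3.56 ± 0.73, adjusted p = 0.0406). Klf4 had among the most negative estimates of the group, with 60.9 and 46.3 CPM against 3.02 and 2.88 CPM in Wt (-4.18 ± 1.01, adjusted p = 0.0691) and 104 and 42.2 CPM against 0.421 and 6.93 CPM in Spen-/- cells (-4.30 ± 1.01, adjusted p = 0.0702), and was called in neither. The day 3 libraries of Klf2 and Klf4 were all below those of day 0.

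Nanog, although counted here with the naive factors, was not called. Wt libraries had 346 and 237 CPM at day 0 and 212 and 329 CPM at day 3, which overlapped (-0.11 ± 0.31, adjusted p = 0.94). Spen-/- libraries had 335 and 249.9 CPM and then 356 and 348 CPM (0.27 ± 0.31, adjusted p = 0.778). The Pou5f1 libraries overlapped as well, at 515 and 286 CPM against 503 and 447 CPM in Wt (0.25 ± 0.27, adjusted p = 0.762) and at 367 and 297 CPM against 329 and 372 CPM in Spen-/- cells (0.08 ± 0.27, adjusted p = 0.961). Its core partner Sox2 did not share this pattern of values. Sox2 was at 74.2 and 92.5 CPM and then at 32.0 and 21.6 CPM in Wt (-1.64 ± 0.51, adjusted p = 0.168) and at 161 and 107 CPM and then at 22.7 and 27.8 CPM in Spen-/- cells (-2.41 ± 0.53, adjusted p = 0.0521), lower in every day 3 library though not past the threshold.

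No member was called for a genotype difference in its change to day 3 (0 by edgeR, 0 by DESeq2, 0% of all genes called by edgeR). Unadjusted p (edgeR) was under 0.05 for 0 members, and estimates ran from -0.80 (Esrrb) to 0.69 (Tbx3). Their SEs ran from 0.38 (Pou5f1) to 1.28 (Klf4) log2 units, so equal changes were not shown. All calls at day 3 rest on the spread pooled over 16 libraries: in a fit of the 4 compared libraries alone, 0 members were called in either genotype. Leaving out Wt day 3 replicate 1 or replicate 2 left 1 member called in Wt cells, and leaving out either Spen-/- day 3 library left 2 in Spen-/- cells, against 6 (Wt) and 8 (Spen-/-) without both Spen-/- day 7 libraries. The calls of Klf2 and Nr0b1 in Spen-/- cells were lost when any 1 of the 4 libraries was left out. In Wt cells the change of Tbx3 was -5.18 without Wt day 3 replicate 2, and that of Nr0b1 was -2.79 without Wt day 0 replicate 1. Summed fibroblast markers overlapped between day 0 and day 3 in Wt cells and were lower at day 3 in Spen-/- cells, and the Y-linked genes were lower at day 3 in both, and their part in the members' changes was not tested.

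The second comparison set day 7 with dox against day 0 with dox, both sorted. In Wt cells 6 members were called lower and none higher, against 3.09% of all genes called lower and 1.48% higher, and all 10 members had both day 7 libraries below both day 0 libraries, as did 28.6% of all genes. In Spen-/- cells 3 members were called lower and none higher, against 4.98% and 3.36% of all genes, and 7 members had day 7 libraries below day 0 libraries, against 24.3%. The core factors fell in both genotypes, whereas Nanog, Tfcp2l1 and Nr0b1 were called in Wt and not in Spen-/- cells. A call in Wt cells only does not show a genotype difference in the change, which is tested further below.

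Pou5f1, the POU factor without which pluripotency is lost, was at 459 and 390.4 CPM in Wt day 0 and at 52.9 and 48.1 CPM in day 7 libraries (-3.07 ± 0.29, adjusted p = 0.000118). Spen-/- cells had 342 and 388 CPM and then 29.7 and 19.8 CPM (-3.88 ± 0.31, adjusted p = 5.52e-05). Sox2 fell from 35.2 and 71.9 CPM to 12.4 and 5.80 CPM in Wt (-2.55 ± 0.54, adjusted p = 0.0187) and from 216 and 97.7 CPM to 25.8 and 47.1 CPM in Spen-/- cells (-2.10 ± 0.52, adjusted p = 0.0289). Without Wt day 7 replicate 2, 4 members were called in Wt. The change of Sox2 was -3.21 without Wt day 7 replicate 1 and -1.44 in Spen-/- cells without day 0 dox replicate 1.

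Esrrb was the only naive factor called in both genotypes, from 130.4 and 81.5 CPM to 5.98 and 5.26 CPM in Wt (-4.23 ± 0.39, adjusted p = 8.45e-05) and from 158 and 127 CPM to 29.1 and 22.2 CPM in Spen-/- cells (-2.48 ± 0.35, adjusted p = 0.00206). Nr0b1 had the most negative estimate in Wt cells, with 135 and 112 CPM at day 0 and 0.589 and 3.81 CPM, that is 7 reads in the first library, at day 7 (-5.82 ± 0.75, adjusted p = 0.000927). Its change was -7.69 without Wt day 7 replicate 2 and -5.03 without replicate 1. Its Spen-/- libraries were at 129 and 152 CPM and then at 32.9 and 66.3 CPM (-1.50 ± 0.60, adjusted p = 0.155). Nanog fell in Wt from 286 and 160.2 CPM to 41.8 and 54.1 CPM (-2.22 ± 0.33, adjusted p = 0.00222), while Spen-/- libraries had 312 and 296 CPM and then 137 and 174 CPM (-0.97 ± 0.31, adjusted p = 0.0835). Tfcp2l1 fell in Wt from 80.4 and 70.5 CPM to 14.5 and 8.52 CPM (-2.71 ± 0.46, adjusted p = 0.00516), and in Spen-/- cells 115 and 156 CPM stood against 46.7 and 123 CPM, which overlapped (-0.67 ± 0.43, adjusted p = 0.355).

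The remaining naive factors were called in neither genotype at day 7. Their baseline, day 0 with dox, had lower means than day 0 without dox in both genotypes, although none was called for dox by edgeR. Tbx3 means were 53.2 against 260 CPM in Wt and 59.7 against 270 CPM in Spen-/- cells. Klf4 means were 10.4 against 53.6 CPM in Wt and 43.4 against 73.0 CPM in Spen-/- cells, where libraries overlapped. Klf2 was at 19.1 and 19.6 CPM and then 4.12 and 2.08 CPM in Wt (-2.63 ± 0.71, adjusted p = 0.0617), and at 71.9 and 29.1 CPM and then 3.73 and 21.2 CPM in Spen-/- cells. Klf4 had 6.32 and 14.5 CPM against 5.22 and 2.54 CPM in Wt and 56.7 and 30.0 CPM against 15.3 and 8.49 CPM in Spen-/- cells. Klf5 went from 315 and 180.4 CPM to 109 and 109.8 CPM in Wt (-1.18 ± 0.33, adjusted p = 0.0679) and from 244 and 187 CPM to 191 and 169.8 CPM in Spen-/- cells, which overlapped. Tbx3 stood at 71.7 and 34.8 CPM against 23.5 and 20.1 CPM in Wt and at 64.2 and 55.3 CPM against 41.4 and 88.1 CPM in Spen-/- cells, which also overlapped (0.12 ± 0.46, adjusted p = 0.967). Fitted to the compared libraries alone, 7 members were called in Wt and 0 in Spen-/- cells, and 7 were called in Wt without both Spen-/- day 7 libraries. Without Spen-/- day 0 dox replicate 1 or Spen-/- day 7 replicate 1, 2 members were called in Spen-/- cells, and without day 7 replicate 2, 5.

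**Figure D2:**
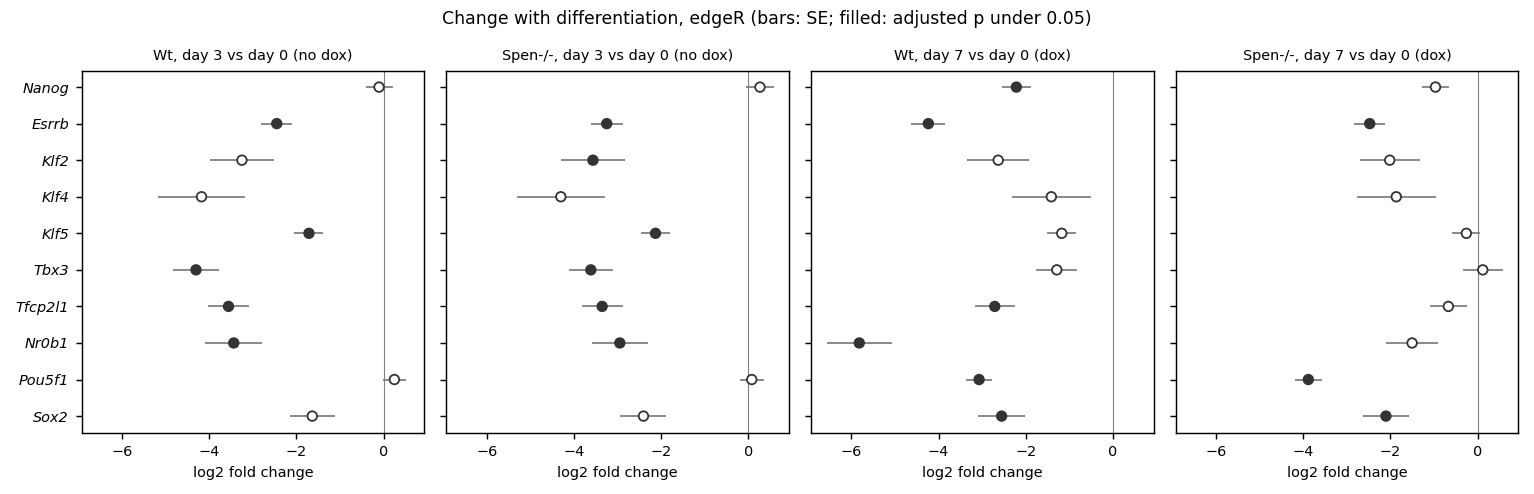
log2 fold change (x axis) of the 10 factors (y axis) in 4 differentiation comparisons, with SE bars from edgeR and filled circles for adjusted p under 0.05. Nanog and Pou5f1 lie close to 0 at day 3, and at day 7 Pou5f1 is at -3.07 in Wt and -3.88 in Spen-/- cells while Tbx3 in Spen-/- cells is at 0.12. Day 3 is set against day 0 without dox, and day 7 against day 0 with dox.

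The third comparison set Spen-/- against Wt cells in each condition, and shares its libraries with the comparisons above. At day 7, 5 members were called higher (3.1% of all genes) and 1 lower (4.01%) in Spen-/- cells. Nr0b1 was 22.7-fold higher (log2 4.50 ± 0.72, adjusted p = 0.00282), Tfcp2l1 7.38-fold (2.88 ± 0.46, adjusted p = 0.0029), Esrrb 4.55-fold (2.19 ± 0.36, adjusted p = 0.00359), Sox2 4.01-fold (2.00 ± 0.53, adjusted p = 0.0411) and Nanog 3.24-fold (1.70 ± 0.32, adjusted p = 0.00748). Pou5f1 was 2.04-fold lower (-1.03 ± 0.28, adjusted p = 0.0465), the sole member with the opposite sign. Klf2 (2.00 ± 0.70), Klf4 (1.61 ± 0.92), Klf5 (0.72 ± 0.33) and Tbx3 (1.57 ± 0.47) missed the threshold with adjusted p from 0.0682 (Tbx3) to 0.306 (Klf4). For 8 members both Spen-/- libraries were above both Wt libraries, as for 19.6% of all genes, and for Pou5f1 both were below, as for 33.2%. The Klf2 libraries overlapped, since Spen-/- replicate 1 (3.73 CPM) was below Wt replicate 1 (4.12 CPM) and replicate 2 was at 21.2 CPM.

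The calls at day 7 differ in how far they rest on single libraries. The log2 difference of Nr0b1 was 3.66 without Wt replicate 1 and 6.36 without Wt replicate 2, that of Tfcp2l1 was 2.03 without Spen-/- replicate 2, and that of Sox2 was 2.61 without Wt replicate 1. Esrrb, Tfcp2l1 and Nr0b1 were called whichever of the 4 libraries was left out, and Nanog without 3 of the 4. Sox2 and Pou5f1 were each called without 1 of the 4. In all, 3 members were called without Wt replicate 1, 4 without Wt replicate 2 or Spen-/- replicate 2, and 8 without Spen-/- replicate 1, and 0 in a fit of these 4 libraries alone. A list of 10 mesoderm genes moved with genotype in the same libraries, summing to 385 and 464 CPM in Wt (10 genes with reads) and 9.26 and 3.37 CPM in Spen-/- cells (3 and 1 genes with reads), while the fibroblast markers overlapped, and their part in the members' differences was not tested.

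Whether the day 7 change itself differed between genotypes was tested with an interaction term, which called 1 member (2.01% of all genes). Nr0b1 changed by 4.32 ± 0.91 log2 units more positively in Spen-/- than in Wt cells (adjusted p = 0.0315). This call was lost without any single day 0 dox library, without Wt day 7 replicate 1 and in the fit of these 8 libraries alone, with 0 members called in each. The interaction of Esrrb was 1.76 ± 0.49 (adjusted p = 0.105), of Tfcp2l1 2.04 ± 0.61 (adjusted p = 0.14), of Nanog 1.25 ± 0.44 (adjusted p = 0.221) and of Pou5f1 -0.81 ± 0.39 (adjusted p = 0.383), so a genotype difference in their change was not shown.

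**Figure D3:**
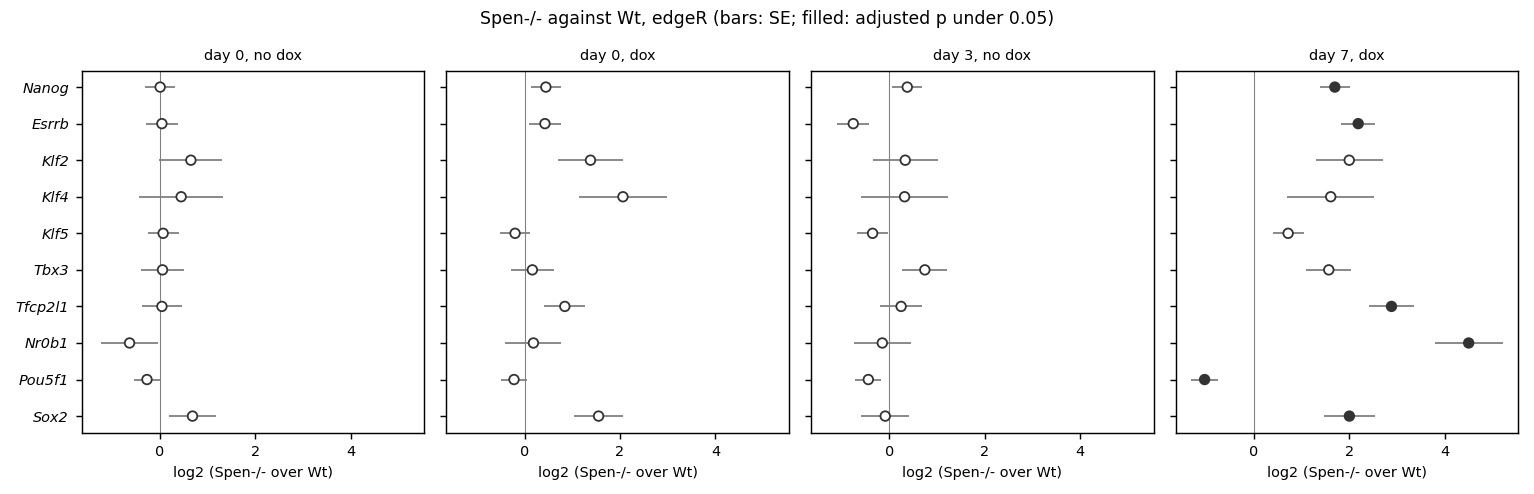
log2 of Spen-/- over Wt (x axis) for the 10 factors (y axis) in 4 conditions, with SE bars from edgeR and filled circles for adjusted p under 0.05. Filled circles appear only at day 7, where 5 factors lie above 0 and Pou5f1 lies below.

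Before day 7 no member was called between genotypes. Spen itself, deleted in Spen-/- cells, was not called by edgeR in these conditions either. Its log2 differences were -3.32 ± 0.89 (SE, day 0), -3.65 ± 0.91 (day 0 with dox) and -4.27 ± 0.94 (day 3). The absence of calls therefore does not show that levels were alike. At day 0 without dox, 0 members were called by edgeR or DESeq2 and 0 had an unadjusted p under 0.05 (0% of all genes called), with estimates from -0.64 (Nr0b1) to 0.68 (Sox2). At day 0 with dox, 0 were called by edgeR or DESeq2 (0.0826% of all genes), 2 had an unadjusted p under 0.05, and estimates ran from -0.22 (Pou5f1) to 2.06 (Klf4). At day 3, 0 were called by either tool (0% of all genes), 1 had an unadjusted p under 0.05, and estimates ran from -0.75 (Esrrb) to 0.75 (Tbx3).

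The naive factors were then set against the core factors within each library, as the mean log2 CPM of the 8 naive factors minus that of Pou5f1 and Sox2, which hardly depends on library scaling and is given as a description. At day 0 without dox the difference was 0.01 ± 0.10 (SD, n = 2) in Wt and -0.13 ± 0.03 in Spen-/- cells. It was -2.19 ± 0.51 and -1.96 ± 0.07 at day 3, a change from day 0 of -2.20 ± 0.52 and -1.83 ± 0.07. Against Pou5f1 alone that change was -3.18 (Wt) and -3.06 (Spen-/-), and against Sox2 alone -1.22 and -0.60. With dox it was -1.10 ± 0.51 (Wt) and -1.08 ± 0.12 (Spen-/-) at day 0. At day 7 the genotypes parted, with -1.31 and -0.72 in the Wt libraries and 0.38 and 0.85 in the Spen-/- libraries.

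The result depends on which core factor is used, because Pou5f1 and Sox2 did not move together. Pou5f1 minus Sox2 was 2.21 ± 0.82 log2 units in Wt and 1.33 ± 0.21 in Spen-/- cells at day 0 without dox, and 4.17 ± 0.28 (Wt) at day 3, when the Spen-/- libraries were at 3.86 and 3.74. At day 7 it was 2.57 ± 0.67 in Wt and -0.52 ± 1.03 in Spen-/- cells, where the 2 libraries fell on both sides of 0 (0.20 and -1.25). Against Pou5f1 alone the genotypes differed at day 7 by 3.17 in the naive difference, and against Sox2 alone by 0.082.

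**Figure D4:**
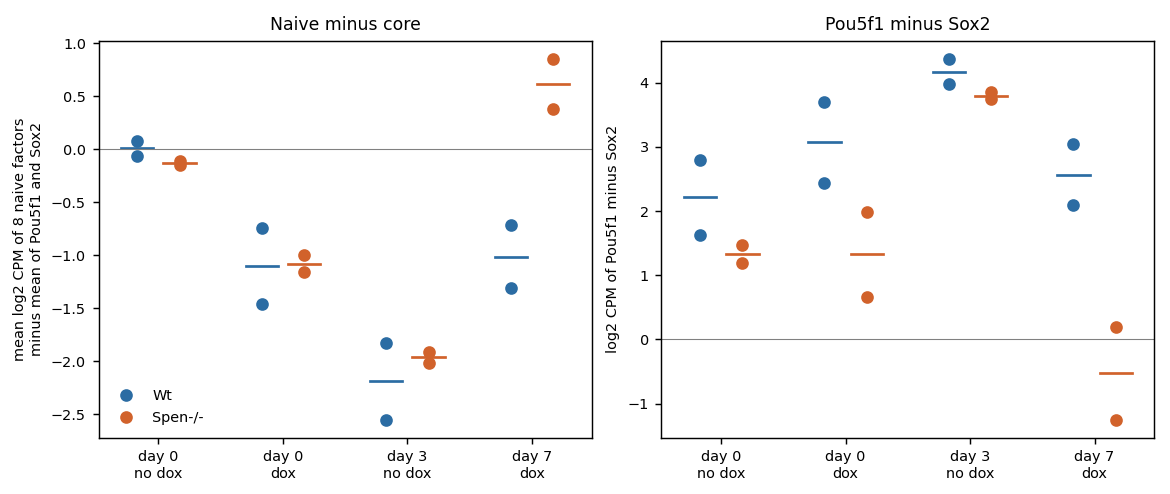
Left, mean log2 CPM of the naive factors minus that of the core pair; right, log2 CPM of Pou5f1 minus Sox2, by condition (x axis), with points for libraries and lines for means of 2. The naive factors are lowest relative to the core pair at day 3 (-2.19 Wt, -1.96 Spen-/-), and at day 7 both Spen-/- libraries lie above 0 while both Wt libraries lie below.

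The fourth comparison, dox against no dox at day 0, addressed forced Xist expression in undifferentiated cells, with sorting and dox changing together. No member was called in Wt cells by edgeR (0.149% of all genes called), although 6 had an unadjusted p under 0.05 and DESeq2 called 2. In Spen-/- cells 0 were called by edgeR (0.0716% of all genes), 2 had an unadjusted p under 0.05 and DESeq2 called 1. The lowest estimates were those of Klf4 (-2.37 ± 0.92) and Tbx3 (-2.29 ± 0.48, adjusted p = 0.128) in Wt, and of Tbx3 (-2.18 ± 0.48, adjusted p = 0.172) in Spen-/- cells. Tbx3 stood at 246 and 275 CPM without and 71.7 and 34.8 CPM with dox in Wt cells. In Wt cells 7 of 10 members were lower in both dox libraries than in both others, as were 17.1% of all genes, and in Spen-/- cells 5 were, against 16.5%. Pou5f1 had 0.08 ± 0.27 and 0.13 ± 0.27. Summed fibroblast markers were lower with dox in every library, and all 10 markers had reads in 2 of the 4 untreated libraries, against 4 to 9 markers in dox libraries, with Lum at 0 in all 4. Their part in these differences was not tested. The interaction of genotype and dox called 0 members by edgeR or DESeq2 (0 with an unadjusted p under 0.05, 0% of all genes called).

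Allele-specific reads were a separate readout. The Cast share is the number of Cast reads over Cast and 129 reads of a gene, with 95% Wilson intervals that cover counting error only. Nr0b1 lies on the X chromosome whose Cast copy carries the inducible Xist promoter. Xist, the RNA that coats and silences the X chromosome it is transcribed from, was at 27.5 and 46.3 CPM without and 181 and 282 CPM with dox in Wt cells at day 0, and at 25.6 and 18.5 CPM and then 80.9 and 38.6 CPM in Spen-/- cells. The Cast share of Nr0b1 in Wt cells was 0.554 (0.519 to 0.588) and 0.370 (0.311 to 0.433) without dox, and 0.182 (0.148 to 0.221) and 0.163 (0.118 to 0.220) with dox. Spen-/- libraries had 0.448 and 0.495 without and 0.446 and 0.420 with dox. The Wt dox libraries were thus below all other day 0 libraries, near the median of X-linked genes in the same libraries (0.147 and 0.160).

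This difference was not past the threshold over all genes tested. The Cast over 129 ratio of Nr0b1 changed by -2.05 ± 0.74 log2 units with dox in Wt (edgeR, adjusted p = 0.78, 0.478% of genes called) and by -0.22 ± 0.73 in Spen-/- cells (adjusted p = 1, 0% of genes called), and Spen-/- with dox stood 1.87 ± 0.74 above Wt with dox (adjusted p = 0.751, 0.382% of genes called). In none of these comparisons did the ratio of Nr0b1 pass, although its unadjusted p was 0.0148 with dox in Wt cells and 0.0239 between genotypes with dox (edgeR, over 16 libraries). At day 3 the Spen-/- replicates were far apart, at 0.911 (0.807 to 0.961, 51 of 56 reads from Cast) and 0.333 (0.192 to 0.512, 10 of 30), and Wt replicates were at 0.543 and 0.630. At day 7 the Spen-/- shares were 0.318 (0.200 to 0.466) and 0.311 (0.235 to 0.399). The median of X-linked genes in the same libraries was higher (0.482 and 0.499). Wt libraries at day 7 held 0 and 7 allele-specific reads, too few for a share.

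**Figure D5:**
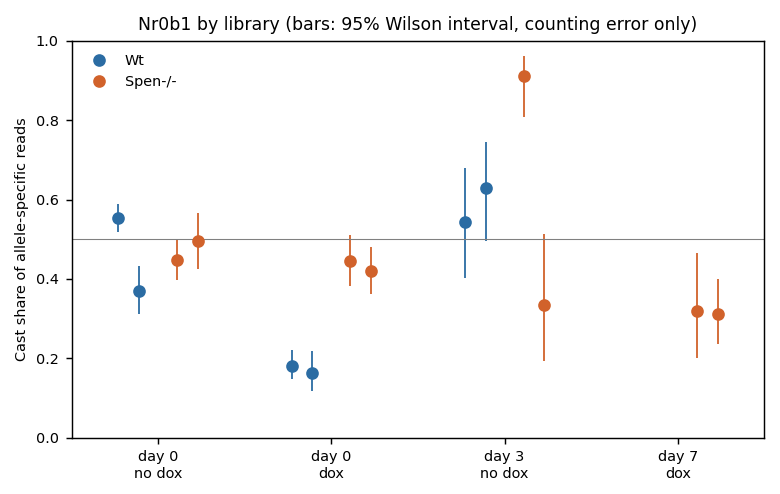
Cast share of Nr0b1 reads (y axis) by condition (x axis) in each library with more than 20 allele-specific reads, with 95% Wilson intervals; the line marks 0.5. Both Wt dox libraries lie at 0.182 and 0.163 at day 0, Spen-/- dox libraries at 0.446 and 0.420, and the Spen-/- day 3 replicates at 0.911 and 0.333.

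The 9 autosomal members had Cast shares over all libraries from 0.345 (Klf2, 0.236 to 0.473, 58 reads) to 0.789 (Esrrb, 0.763 to 0.812, 839 of 1064 reads). Esrrb was the furthest from the autosomal median, which was 0.468 to 0.5 by library. Other genes whose start lay within 5 Mb of that of Esrrb on chromosome 12 had a median Cast share of 0.702 to 0.771 by library, over 41 to 56 genes that each had over 20 such reads, so Esrrb was not alone in its neighbourhood in holding more Cast reads. Pooled over libraries, Nanog (0.496, 0.470 to 0.523) and Tbx3 (0.488, 0.463 to 0.514) were near 0.5. Sox2 (0.380, 0.351 to 0.410), Tfcp2l1 (0.393, 0.378 to 0.408) and Klf5 (0.414, 0.390 to 0.437) were lower. These intervals do not cover the spread between libraries. Single libraries with over 20 such reads ran from 0.318 to 0.903 (Nanog), 0.148 to 0.889 (Tbx3) and 0.0769 to 0.659 (Sox2). They ran from 0.333 to 0.625 for Tfcp2l1, 0.247 to 0.532 for Klf5 and 0.663 to 0.9375 for Esrrb. No member that could be tested was called in any of the 7 comparisons of allelic ratio by edgeR or DESeq2. These included genotype at day 0 without dox and day 3 (0% of genes called in each), at day 7 (3.18%) and the interaction with dox (0.177%). Klf2 had too few reads to be tested in any of them. At day 7 only Nanog, Klf5, Tbx3 and Tfcp2l1 were tested, so Nr0b1 was not.

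Other genes of the pluripotent state were read from a list of 20, chosen by function but with earlier results of these data known. At day 3, 6 fell in Wt and 5 in Spen-/- cells and none rose, beside the 0.953% and 0.656% of all genes that were called lower. The largest changes were those of Tcl1, an AKT co-activator (593 and 902 CPM to 33.3 and 34.9 CPM in Wt, log2 -4.45 ± 0.37, adjusted p = 0.000309), Zfp42 (REX1), a marker of naive cells (-3.44 ± 0.22, adjusted p = 4.58e-05), and Fgf4, an OCT4 and SOX2 target that drives exit through ERK (-2.76 ± 0.58, adjusted p = 0.0433). At day 7, 14 of 20 fell in Wt and 7 in Spen-/- cells, beside 3.09% and 4.98% of all genes. In Wt the largest changes were those of Dppa2, a chromatin-binding partner of Dppa4 (86.4 and 83.2 CPM to 0.0842 and 0.453 CPM), Tcl1 (119 and 209.5 CPM to 1.35 and 2.08 CPM) and Fgf4 (111 and 204 CPM to 2.86 and 3.35 CPM). The largest in Spen-/- cells were those of Prdm14, a transcriptional regulator of the naive and germline state (28.5 and 9.04 CPM to 0 and 1.05 CPM), Lin28a, an RNA-binding protein (-1.88 ± 0.23, adjusted p = 0.000933), and Tdgf1, a NODAL co-receptor (-1.82 ± 0.29, adjusted p = 0.00325). Against Wt cells, 10 of the 20 were higher and 2 lower in Spen-/- cells at day 7, beside 3.1% and 4.01% of all genes. The 2 lower ones, named after their values were seen, were Prdm14 (9.76 and 9.33 CPM in Wt, 0 and 1.05 CPM in Spen-/- cells) and Lin28a (79.6 and 69.0 CPM against 31.0 and 32.5 CPM). Among the 10 higher, Zfp42 was at 18.9 and 18.9 CPM in Wt and 323 and 293 CPM in Spen-/- cells (4.02 ± 0.23, adjusted p = 5.9e-06), and its interaction term was 3.68 ± 0.29 (adjusted p = 0.000225). That term called 8 of the 20 genes, all higher, beside 2.01% of all genes called in either direction.

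Signalling genes were read from a pair of lists. For these lists and those of the next paragraph, the shares of all genes called lower and higher were as follows. At day 3 they were 0.953% and 0.43% in Wt and 0.656% and 0.573% in Spen-/- cells. At day 7 they were 3.09% and 1.48% in Wt and 4.98% and 3.36% in Spen-/- cells. Between genotypes at day 7 they were 4.01% and 3.1%. With dox at day 0 in Wt cells, 0.149% were called in either direction. Of 8 genes of LIF and STAT3 signalling, 1 fell at day 3 in Wt cells, the LIF receptor Lifr (95.1 and 123 CPM to 14.6 and 13.8 CPM), 0 at day 7 in Wt, and 1 at day 7 in Spen-/- cells, the STAT3 feedback inhibitor Socs3, which was at 26.0 and 5.47 CPM at day 0 and had 0 reads in both day 7 libraries, at least 86.0-fold lower against a floor of 3 reads over the group. Of 15 genes of FGF-ERK and WNT-TCF signalling, Spry2, an ERK feedback inhibitor, fell at day 3 in Wt cells (-3.04 ± 0.61, adjusted p = 0.0332). At day 7, Gsk3b rose in both genotypes (2.30 ± 0.44 in each), Fgfr2 rose and Etv5 fell in Wt, and Lef1 fell in Spen-/- cells. Between genotypes at day 7, Socs3 (17.0 and 13.4 CPM in Wt), and the ERK and WNT pathway genes Mapk3 (49.8 and 33.7 CPM against 8.61 and 10.5 CPM), Dusp6 (188 and 217 CPM against 31.0 and 66.8 CPM) and Lef1 (115 and 129 CPM against 6.04 and 19.8 CPM) were lower in Spen-/- cells, and no gene of either list was called higher.

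Genes of the formative state and the germ layers showed what else the cells expressed. Of 10 formative and epiblast genes, Fgf5 and Nodal rose at day 3 in both genotypes, Fgf5 from 46.0 and 33.1 CPM to 158 and 149 CPM in Wt (1.96 ± 0.28, adjusted p = 0.00506) and by 2.01 ± 0.28 in Spen-/- cells (adjusted p = 0.00481). At day 7, 4 of the 10 fell in each genotype, among them Otx2 and Dnmt3b, against 3.09% (Wt) and 4.98% (Spen-/-) of all genes. With dox at day 0 in Wt cells, Fgf5 (2.12 ± 0.28, adjusted p = 0.0148) and Dnmt3b (1.75 ± 0.29, adjusted p = 0.0473) rose and Tcl1 fell (-2.19 ± 0.34, adjusted p = 0.0356), the 3 called genes of all lists in that comparison. Of 10 mesoderm genes, T (brachyury) rose at day 7 in Wt cells, from 29.1 and 3.89 CPM to 192 and 211 CPM (3.60 ± 0.78, adjusted p = 0.0256). It had in Spen-/- cells 12.6 and 10.5 CPM at day 0 and 0 reads in both day 7 libraries, at least 62.9-fold lower against the same floor, and Cdh2 was likewise at 0 reads. Snai1, at 22.3 and 20.5 CPM in Wt day 7 libraries, had 0 reads in those of Spen-/- cells as well. Of 10 endoderm genes, Lama1 fell at day 3 and Sparc rose at day 7 in Spen-/- cells, and in Wt cells none was called at either time, although the list's median log2 change at day 7 was 1.75. Of 5 neural genes tested, Tubb3 fell in both genotypes and Map2 in Spen-/- cells at day 7. Of 6 trophoblast markers, Krt7 rose at day 7 in both genotypes, Tfap2c rose in Wt at day 7 and fell in Spen-/- cells at day 3. Of the 10 fibroblast markers, Thy1 fell at day 7 in both genotypes and Col1a1 rose in Spen-/- cells, from 3.11 and 8.04 CPM to 66.9 and 45.9 CPM. The trophoblast factor Cdx2 (16.1 and 14.3 CPM in Wt) and the fibroblast marker Pdgfrb (5.30 and 4.98 CPM) had 0 reads in Spen-/- day 7 libraries and were called lower there.

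Across the 16 libraries, the gene whose log2 CPM was most like the mean of the naive factors was Spp1 (Pearson r = 0.96), followed by 2210409E12Rik and Fam25c, among 11017 genes with a mean of at least 5 CPM. The gene most like Pou5f1 was Ccnd1 (r = 0.97), followed by D1Pas1 and Clstn3, and that most like Sox2 was Epop (r = 0.94), followed by Tpt1 and Gtsf1l. Within the group, Klf2 and Tfcp2l1 were most alike (r = 0.93), Sox2 was closer to Klf2 (r = 0.93) than to Pou5f1 (r = 0.46), and Pou5f1 and Tbx3 were least alike (r = 0.10). These values are descriptions over 16 libraries that share 8 conditions.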

How the data were processed

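RNA-seq libraries of 16 samples were made by the authors with Smart-seq2 and sequenced as single-end reads. The authors aligned reads to a variant-masked mm10 genome with hisat2 2.2.1, split them by allele with SNPsplit 0.3.4 and counted them with HTSeq 0.12.4. The deposited files hold raw counts per gene in 3 columns (129/Sv, Cast/Ei and unassigned), which were summed here. Lines of reads on no gene (31.6% to 45.4% of reads) were left out. The members and gene lists were chosen with earlier results of these data known. All members, and by list the 3 called genes with the largest change in each differentiation comparison, are named.

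Genes passed filterByExpr with a minimum count of 10, a minimum total of 15, and settings large.n of 10 and min.prop of 0.7. All 16 libraries were fitted together, 1 term per condition, with edgeR 4.0.16 (quasi-likelihood F-test, TMM) in R 4.3.3. Benjamini-Hochberg adjustment covered all genes of a comparison, with a threshold of 0.05. An exact permutation test of 2 against 2 libraries cannot go below p = 0.333 and was not used. log2 CPM had a prior count of 0.5. Allelic ratios were tested in the same way with a term per library, where each compared condition had over 20 reads of either allele. DESeq2 1.42.0 was an alternative. Both tests were checked on simulated data. Replicate numbers were checked for pairing over 28 pairs of conditions: the correlations of replicate differences ran from -0.05 to 0.12 with a median of 0.01, so libraries were not paired. No 2 files were identical, and replicates differed by more than counting error (chi-square per degree of freedom 11.0 to 70.2). Protein sequences were not used here.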

Additional observations from a re-analysis of the deposited data

Results flagged for a closer look

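The change of Nr0b1 between day 0 and day 7 with dox differed between genotypes by the interaction test, at 4.32 log2 units (Spen-/- minus Wt). Its level was 0.589 and 3.81 CPM in the Wt and 32.9 and 66.3 CPM in the Spen-/- day 7 libraries. The interaction rests on 2 libraries per condition, of which the Wt day 7 libraries held 7 reads in replicate 1, and on the Spen-/- day 7 libraries that had the fewest detected genes. Its adjusted p was 0.0315 by edgeR, 1.15e-12 to 0.131 under 8 other settings and 0.00984 to 0.102 with each of 8 libraries left out, and it was called in 7 of the 8 settings and 3 of the 8 omissions.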

How the results depend on the processing

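With edgeR as described, the counts of genes called were 251 and 223 for day 3 against day 0 (Wt, then Spen-/-), 829 and 1512 for day 7 against day 0, 0, 15, 0 and 1291 for genotype (day 0, day 0 with dox, day 3, day 7), 27 and 13 for dox (Wt, then Spen-/-), and 0, 364 and 0 for the interactions at day 3, at day 7 and with dox. In the same order, DESeq2 called 1153, 1063, 1907, 3152, 38, 446, 10, 2883, 292, 337, 2, 1139 and 65, and edgeR without a filter on low counts called 949, 916, 1418, 2748, 17, 385, 23, 2521, 290, 252, 13, 1002 and 83. Members called rose with DESeq2 to 8 (Wt day 3), 8 (Spen-/- day 3), 9 (Wt day 7), 5 (Spen-/- day 7) and 8 (genotype at day 7). They rose to 2 and 1 for dox (Wt and Spen-/-) and to 3 for the interaction at day 7. Without the filter the counts were, in the same order, 8, 8, 9, 7, 8, 2, 2 and 3, with 1 for genotype at day 0 with dox. Fitted to the compared libraries alone, where 4 libraries leave 2 residual degrees of freedom, 0 genes and 0 members were called for day 3 in either genotype, Spen-/- day 7 and genotype at day 7, 0 genes for dox and for genotype at day 0 with dox, 1600 genes for Wt day 7, and 55 genes and 0 members for the interaction at day 7. Without both Spen-/- day 7 libraries, a setting chosen after seeing the data, 407 (Wt day 3), 397 (Spen-/- day 3), 23 (genotype, day 0 with dox), 44 and 42 (dox) genes were called. With the replicate block, dox calls went to 47 (Wt) and 8 (Spen-/-) genes, members called to 4 at day 3 in Spen-/- cells, and the other counts stayed within 1.5 times. The replicate numbers do not pair the libraries by the correlations given with the methods. Genes called for the Cast over 129 ratio were 41 and 0 (dox), 0, 31 and 244 (genotype at day 0, day 0 with dox and day 7) and 13 (interaction with dox), and with DESeq2 85, 32, 2, 92, 579 and 55. With a library size per allele the interaction had 8. Causes were not tested.

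The naive minus core difference moved most with the choice of core factor. With Pou5f1 alone it was -3.18 (Wt day 3), -3.06 (Spen-/- day 3) and 2.62 (Spen-/- day 7), and for genotype 0.90 (day 0 with dox) and 3.17 (day 7), while at day 0 it turned from -0.14 to 0.30. With Sox2 alone these were -1.22, -0.60, 0.77, -0.85, 0.082 and -0.58. The Spen-/- day 3 difference of -1.83 was -2.30, -1.75, -1.52, -1.95 and -1.74 without Nanog, Klf2, Klf4, Klf5 and Tbx3 in turn, and the Spen-/- dox difference of -0.95 was -1.07 without Nanog and -0.75 without Tbx3.

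Leaving out 1 library at a time, with the lone library assumed to vary like the other groups, genes called ran from 30 to 655 (Wt day 3), 55 to 260 (Spen-/- day 3), 270 to 505 (Wt day 7), 777 to 1749 (Spen-/- day 7), 0 to 2, 2 to 15 and 541 to 1694 (genotype at day 0, day 0 with dox and day 7), 3 to 187 and 3 to 40 (dox, Wt and Spen-/-), and 143 to 766 and 0 to 2 (interactions at day 7 and with dox). Members called ran from 1 to 6, 2 to 4, 4 to 6, 2 to 5, 3 to 8 (genotype at day 7) and 0 to 2 (interaction at day 7). For the allelic ratio, genes called ran from 13 to 29 and 0 to 2 (dox), 0 to 3, 13 to 18 and 105 to 615 (genotype at day 0, day 0 with dox and day 7) and 6 to 16 (interaction), and members from 0 to 1 at day 7. For total counts, all members were followed in the differentiation comparisons and in genotype and interaction at day 7. In the other comparisons of total counts, only the members with the lowest and highest estimates were followed. Signs turned in 13 of the member results followed, none of them called. The log2 estimates ran from -0.46 to 0.21 (Nanog, Wt day 3), -0.13 to 0.75 (Pou5f1, Wt day 3), -0.059 to 0.24 (Pou5f1, Spen-/- day 3), -0.53 to 0.54 (Tbx3, Spen-/- day 7), -1.12 to 0.0017 (Nr0b1, genotype at day 0), -0.27 to 0.60 (Pou5f1, dox in Wt), -0.45 to 0.69 (Sox2, dox in Spen-/-), -0.85 to 0.19 (Klf5, dox interaction), and at the day 7 interaction -1.09 to 1.42 (Klf2), -1.12 to 0.13 (Klf4) and -0.11 to 1.15 (Sox2). The Nr0b1 allelic ratio ran from -0.48 to 0.60 (genotype, day 0) and -1.50 to 2.81 (day 3). With 2 libraries per condition and, for Klf2, 58 allele-specific reads over all libraries, small differences were not detectable. Larger ones could go uncalled too, as that of Spen did between genotypes before day 7.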
